A study of Mus musculus with 6 samples.

Results

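The Cdk inhibitors and the p53 axis were described in the mouse uterus with and without activated β-catenin. The genes are Cdkn1a, Cdkn1b and Cdkn1c, Cdkn2a, Cdkn2b, Cdkn2c and Cdkn2d, and Trp53, Mdm2 and Ccng1. A probe set, a group of short array probes that read 1 transcript, was taken as one of them where the platform annotation gives exactly 1 symbol and that symbol is the gene. Of the 10 genes, 9 had 15 such probe sets, out of 18193 genes and 45037 probe sets in all. The annotation used here pairs no probe set with Trp53 alone, so the level of Trp53 itself was not analysed here. A gene with several probe sets is given first by the one with the highest mean over 6 arrays, and then by the others.

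Uterine RNA of 3 control and 3 mutant samples, all at 4 weeks of age, was hybridized to Affymetrix arrays. Mutant mice were Pgr cre/+ Ctnnb1f(ex3)/+, in which the Pgr locus drives Cre, so that wherever progesterone receptor is made 1 Ctnnb1 allele loses exon 3 and gives a β-catenin that is not marked for degradation. Control mice were described as Ctnnb1 f(ex3)/+ and Pgr cre/+ by the authors, while the labels call them wild type. The methods speak of pooled RNA of 3 mice of each genotype, so the arrays of a group may not be separate animals, and p-values cover the spread among these samples alone, which may be technical. The RNA is of whole uterus, in which fewer cells of a type and less RNA per cell cannot be told apart. Pgr, Esr1 and the other 4 genes of a uterine identity list were measured, with Hoxa13 below an intensity of 16 on every array. Pgr, whose locus drives the Cre, was lower in the mutant by 0.97 on the log2 scale (limma adjusted p = 0.0027) and Hand2 was higher by 1.49 (0.00315). Correlations of log2 values were 0.992 to 0.996 within controls, 0.994 within mutants and 0.981 to 0.99 between groups.

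Cdk inhibitors hold the cell cycle before DNA replication. The Cip/Kip proteins p21 (Cdkn1a), p27 (Cdkn1b) and p57 (Cdkn1c) bind complexes of cyclins with Cdks, while the Ink4 proteins (p16 from Cdkn2a, then Cdkn2b, Cdkn2c and Cdkn2d) bind Cdk4 and Cdk6 and keep D-type cyclins from them. The transcription factor p53 (Trp53) raises p21 transcription after DNA damage and other stresses, and also raises Mdm2, the ubiquitin ligase that degrades p53. The second product of Cdkn2a, Arf, inhibits Mdm2. In the uterus, ovarian steroids move epithelial and stromal cells in and out of the cycle, and p21, p27 and p57 are known from the exit of stromal cells from the cycle in decidualization.

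Cdkn1a was higher in the mutant uterus by 7.67-fold, and Cdkn1b was lower by 1.62-fold, a call that several alternatives ended. The other 7 genes measured were not called. A gene was called at a limma adjusted p under 0.05, with Benjamini-Hochberg adjustment over all genes. Hence 1 of 9 genes was called higher, where 5.61% of all genes were, and 1 of 9 was called lower, where 6.36% of all genes were. Of the 15 probe sets, 2 were called higher and 1 lower in a fit over all probe sets, against 3.49% and 3.41% of all of them. The mutant arrays lay wholly above the control arrays for 2 of 9 genes (Cdkn1a and Cdkn2a), as for 14.9% of all genes, and wholly below them for 1 of 9 (Cdkn1b), as for 17.4%. All of these are counts of 1 or 2, and the results rest on single genes.

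**Figure D1:**
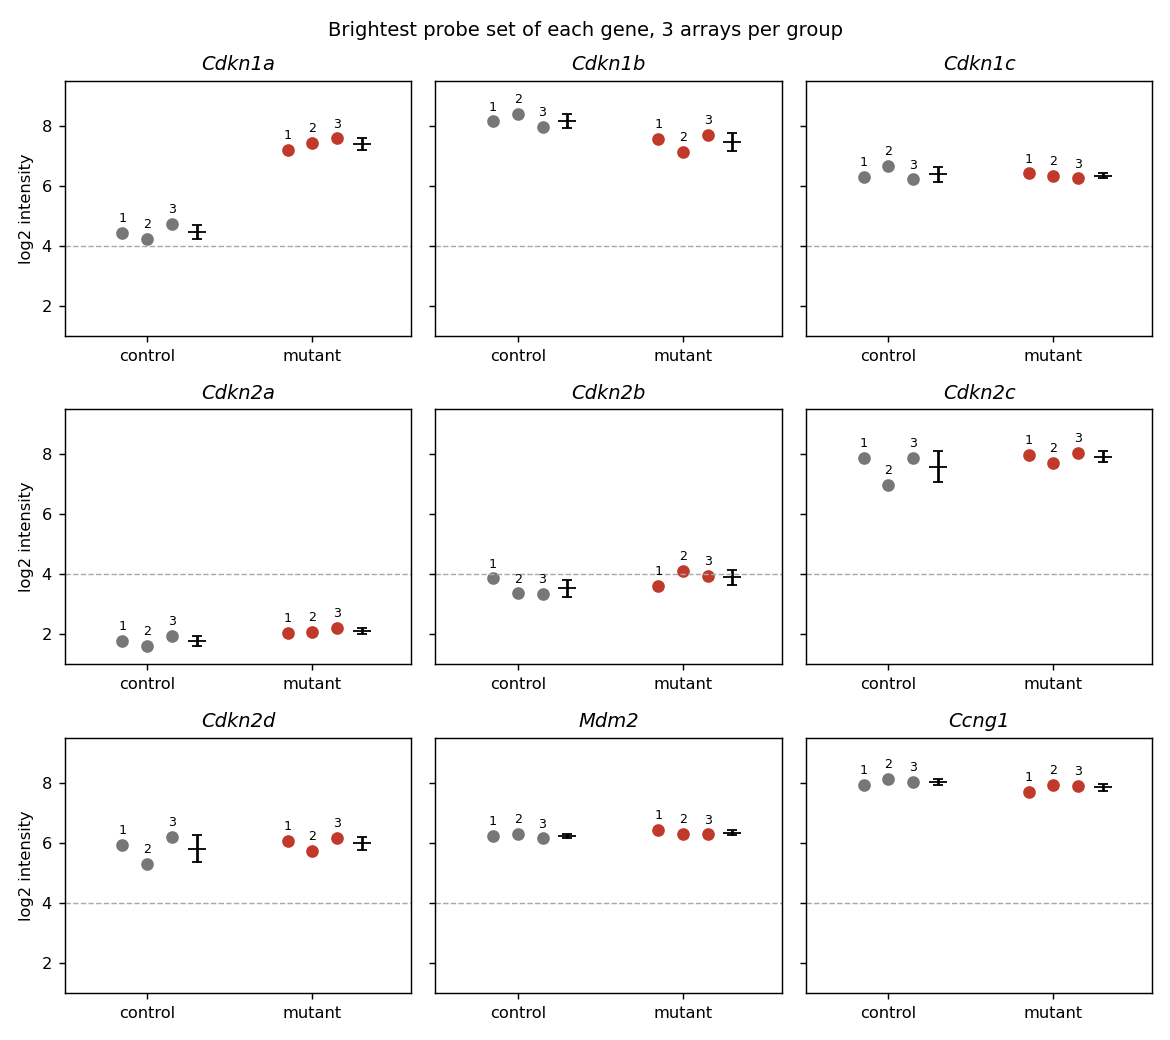
Log2 intensity of each of the 9 measured genes by its probe set with the highest mean, with 1 point for each array, numbered by replicate, and beside the points the mean of the 3 control or 3 mutant arrays with its SD. The dashed line is an intensity of 16. The 3 mutant arrays for Cdkn1a lie between 7.20 and 7.59, above the controls at 4.25 to 4.73, and those for Cdkn1b lie below the controls.

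Cdkn1a encodes p21, the best known p53 target. The 2 RefSeq start sites of Cdkn1a (GRCm38.p6) lie 2790 bases apart on the plus strand of chromosome 17, at 29090979 and 29093769. The 250 bases before each are printed because Cdkn1a had the largest change of the 9 measured genes and the windows differ in the letters they hold. Capitals mark the p53 full site in the first window, and the GC boxes GGGCGG, letters bound by Sp1, in the second.
Cdkn1a first start, chr17:29090729-29090978, plus strand: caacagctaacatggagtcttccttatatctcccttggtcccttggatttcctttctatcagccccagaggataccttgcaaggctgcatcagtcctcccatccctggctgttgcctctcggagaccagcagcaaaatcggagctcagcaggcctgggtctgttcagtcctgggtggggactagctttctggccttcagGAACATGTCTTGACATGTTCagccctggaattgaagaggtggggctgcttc
Cdkn1a second start, chr17:29093519-29093768, plus strand: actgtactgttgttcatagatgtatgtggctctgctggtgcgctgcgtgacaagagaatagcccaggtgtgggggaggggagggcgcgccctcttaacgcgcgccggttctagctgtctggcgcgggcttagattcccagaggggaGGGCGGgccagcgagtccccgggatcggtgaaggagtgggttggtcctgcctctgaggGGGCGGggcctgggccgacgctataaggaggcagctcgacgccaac

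The p53 full site was searched as a pair of adjoining copies of the p53 consensus decamer, with no spacer and at most 1 mismatch over 20 letters. That search was added after the promoters had been seen. In the first Cdkn1a window the site spans bases -51 to -32 from the start, at chr17:29090928-29090947, and the second window holds none. Of 32851 RefSeq windows of 300 bases (250 before the start to 50 after it), 0.0883% held a p53 full site, those of 29 genes. The second window has GC boxes at -104 and -46 from its start, and 35.7% of all windows have at least 1. Neither Cdkn1a window holds the TCF/LEF letters CTTTGAA or CTTTGAT on either strand, which 8.65% of windows hold. Which start the array probes read is not given, so the change in Cdkn1a cannot be placed at one of them.

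In the control uterus Cdkn1a (1421679_a_at) measured 4.44, 4.25 and 4.73 on the log2 scale, and in the mutant 7.20, 7.44 and 7.59. Every mutant array was above every control array, with a gap between the groups larger than the range within either. The means were 4.47 ± 0.24 and 7.41 ± 0.19 (SD, n = 3 arrays each), a difference of 2.94 ± 0.15 (SE) with a limma adjusted p of 1e-04. As a ratio this is 7.67-fold, with a 95% confidence interval of 6.04 to 9.73. By log2 fold change Cdkn1a stood at place 43 from the top among 18193 genes. The second probe set (1424638_at) gave 4.62, 4.38 and 4.89 in controls and 6.86, 7.21 and 7.26 in mutants. It rose as well, by 2.48 on the log2 scale (95% interval 2.13 to 2.83, limma adjusted p = 0.000113 over all probe sets), or 5.57-fold. Both probe sets of Cdkn1a thus show separate groups, and with each array left out in turn the difference stayed between 2.83 and 3.07 for the first and between 2.35 and 2.61 for the second.

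**Figure D2:**
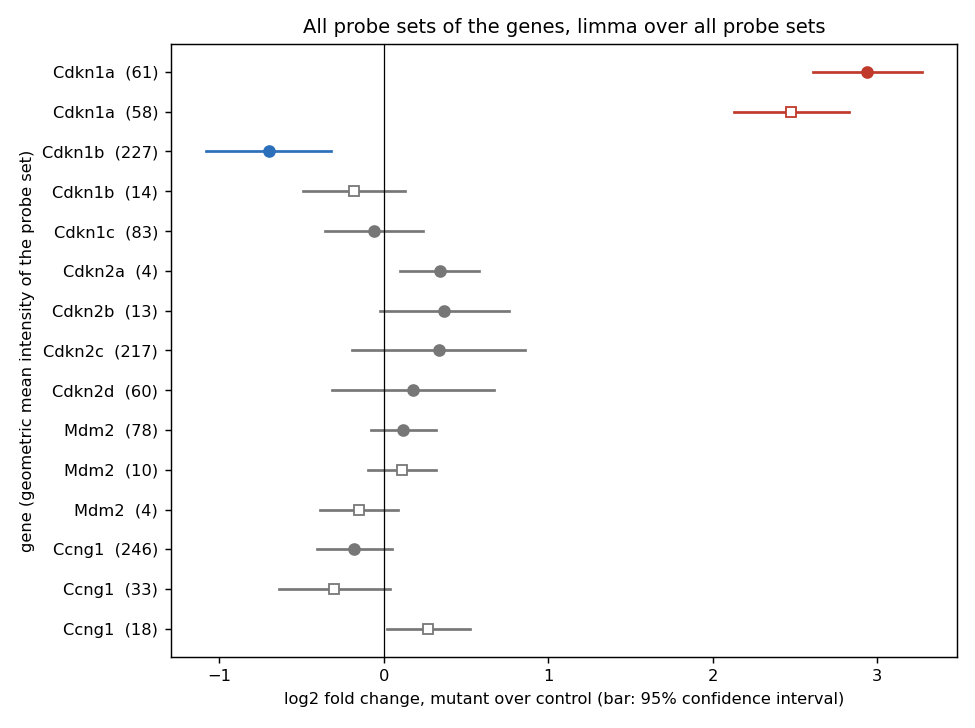
Log2 difference between mutant and control for each of the 15 probe sets, with limma's 95% confidence interval from the fit over all probe sets; filled circles mark the probe set of a gene with the highest mean and open squares its others, red and blue those called higher and lower, and brackets hold the geometric mean intensity. The intervals of the pair of Cdkn1a probe sets lie above 2 and that of the first Cdkn1b probe set below 0.

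The genes whose log2 values over the 6 arrays ran most like those of Cdkn1a, each centred on its own mean, were Ctnnd2, Gabrb1, Hdc, Lipg and Fxyd6. The root mean square difference from Cdkn1a was 0.137 for Ctnnd2 and 0.215 for Fxyd6, the last of the 5. Ctnnd2 encodes δ-catenin, Gabrb1 a GABA receptor subunit, Hdc the enzyme that makes histamine, Lipg endothelial lipase and Fxyd6 a regulator of the sodium pump. Their differences between mutant and control ran from 2.82 for Ctnnd2 to 3.10 for Gabrb1 on the log2 scale, so the likeness is mostly that of the step between the groups.

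Cdkn1b encodes p27, an inhibitor of cyclin E and Cdk2 that is set largely by protein degradation. The single Cdkn1b window (chromosome 6, start at 134920401, plus strand, GRCm38.p6) is printed because Cdkn1b moved opposite to Cdkn1a. It holds no p53 full site and 1 GC box, in capitals, at -61 from the start.
Cdkn1b, chr6:134920151-134920400, plus strand: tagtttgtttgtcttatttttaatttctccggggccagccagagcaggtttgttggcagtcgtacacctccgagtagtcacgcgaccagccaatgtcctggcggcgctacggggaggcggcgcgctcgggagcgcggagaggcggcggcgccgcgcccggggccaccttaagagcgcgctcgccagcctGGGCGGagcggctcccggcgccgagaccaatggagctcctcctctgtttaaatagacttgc

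Cdkn1b (1434045_at) measured 8.15, 8.41 and 7.96 in controls and 7.57, 7.15 and 7.71 in mutants on the log2 scale. The groups did not overlap, with 0.25 between the lowest control and the highest mutant array. The means were 8.18 ± 0.23 and 7.48 ± 0.29 (SD, n = 3 arrays each), and the difference was -0.70 ± 0.17 (SE; 95% interval -1.10 to -0.30) with a limma adjusted p of 0.0384. The second probe set of Cdkn1b (1419497_at) was dim. It gave 3.67, 4.16 and 3.74 in controls and 3.74, 3.57 and 3.71 in mutants, groups that overlapped (difference -0.18, 95% interval -0.49 to 0.13, limma adjusted p = 0.535 over all probe sets). The call for Cdkn1b was lost without control replicate 1 (limma adjusted p = 0.113), control replicate 2 (0.103), mutant replicate 1 (0.063) or mutant replicate 2 (0.0945). With the mean of both probe sets the difference was -0.44 (0.0941), and with values under 16 raised to 16 the adjusted p was 0.17. The fall stayed between 0.53 and 0.82 on the log2 scale when any 1 array was left out.

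Cdkn1c, which encodes p57 and is expressed from the maternal allele, measured 6.30, 6.68 and 6.22 in controls and 6.42, 6.34 and 6.25 in mutants. The groups overlapped, with control replicate 2 the highest of all arrays. The difference was -0.06 on the log2 scale (95% interval -0.37 to 0.24, limma adjusted p = 0.823), and without control replicate 2 it was 0.08. That interval does not reach a change as large as those of Cdkn1a or Cdkn1b.

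The 4 Ink4 genes were not called. Cdkn2a, read by 1450140_a_at, was dim, below an intensity of 16 (log2 of 4) on every array. It measured 1.78, 1.63 and 1.94 in controls and 2.05, 2.08 and 2.22 in mutants. The groups did not overlap, yet the difference of 0.34 (95% interval 0.10 to 0.58) had a limma adjusted p of 0.0793 and an unadjusted p of 0.0122. On each array 62.3% to 62.6% of probe sets were below 16 as well. The sources used here do not say whether the probes read p16, Arf or both.

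Cdkn2b, which encodes p15 beside Cdkn2a on chromosome 4 and responds to TGF-β, measured 3.87, 3.37 and 3.36 in controls and 3.62, 4.13 and 3.95 in mutants. The ranges overlapped through control replicate 1, and the difference was 0.37 (95% interval -0.04 to 0.78, limma adjusted p = 0.239). The signal was dim, at intensities of 10.27 to 14.61 in controls and 12.32 to 17.47 in mutants. With values under 16 raised to 16, the Cdkn2b difference was 0.04. Cdkn2c, which encodes p18, measured 7.90, 6.998 and 7.88 in controls and 7.99, 7.72 and 8.07 in mutants. Control replicate 2 alone was far below the other 5 arrays. The difference in Cdkn2c was 0.33 (95% interval -0.22 to 0.89, limma adjusted p = 0.443), and without control replicate 2 it was 0.04. Cdkn2d, which encodes p19 of the Ink4 family, measured 5.92, 5.31 and 6.19 in controls and 6.06, 5.73 and 6.16 in mutants. Here too control replicate 2 was the lowest array, and the difference of 0.17 (95% interval -0.35 to 0.70, limma adjusted p = 0.69) became -0.08 without it.

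Control replicate 2 lay below the mean of the other two controls by 0.89 for Cdkn2c and by 0.75 for Cdkn2d on the log2 scale. Only 1.09% and 1.48% of all genes deviated at least as far there. It lay above them by 0.43 for Cdkn1c and 0.36 for Cdkn1b, and below them by 0.33 for Cdkn1a. At least as far deviated 6.09%, 9.38% and 11% of all genes. The mean log2 level of 23 proliferation markers was 4.24 in that array, against 6.13 and 6.20 in the other two controls and 5.91 to 6.35 in the mutants. That array, with the lowest mean of proliferation markers, was the lowest control for Cdkn1a, Cdkn2a, Cdkn2c and Cdkn2d. It was the highest control for Cdkn1b, Cdkn1c, Mdm2 and Ccng1, and between the others for Cdkn2b. The part of this in the comparison of groups was not tested beyond leaving the array out.

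**Figure D3:**
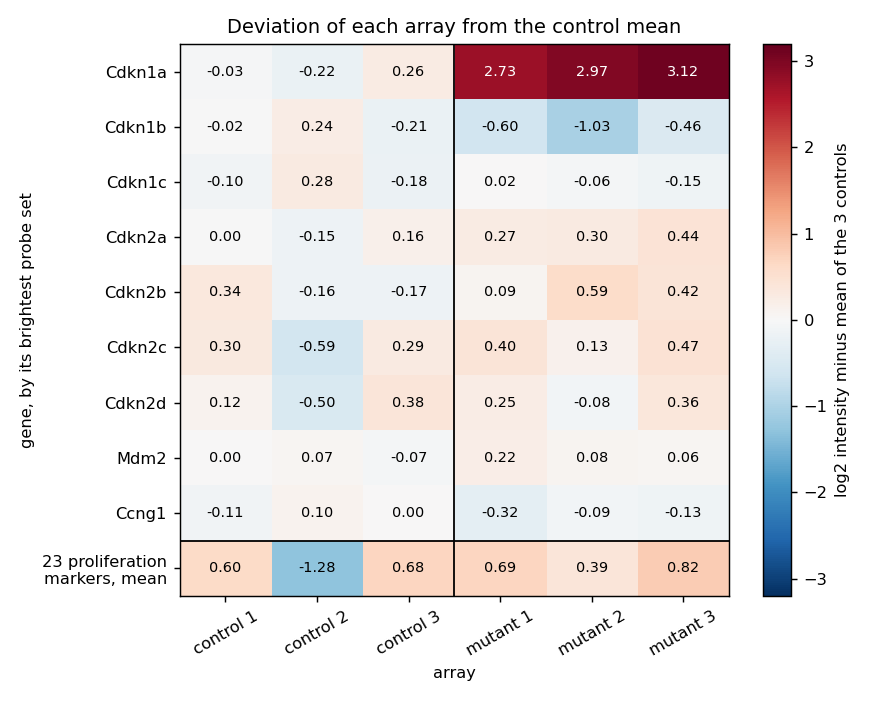
Log2 intensity of each gene on each of the 6 arrays minus the mean of the 3 controls, as a colour from blue (below) to red (above) with the value in each cell, and the mean of 23 proliferation markers in the last row. Cdkn1a is red in every mutant array, and control replicate 2 is the bluest cell of Cdkn2c, Cdkn2d and the proliferation markers.

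The 2 measured genes next to p53 were not called. Mdm2 (1423605_a_at) measured 6.23, 6.29 and 6.15 in controls and 6.44, 6.30 and 6.28 in mutants. The groups overlapped, since mutant replicate 3 was below control replicate 2. The difference was 0.12 (95% interval -0.08 to 0.31, limma adjusted p = 0.435), so a change of Mdm2 as large as that of Cdkn1a lies outside the interval. The other 2 probe sets of Mdm2 were dim and gave 0.11 (1427718_a_at) and -0.15 (1457929_at).

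Ccng1 encodes cyclin G1, a p53 target that recruits a phosphatase to Mdm2. It was compared with Cdkn1a because, among the 9 genes searched, it is the only other with a p53 full site in a window. Sequence outside the windows was not searched, so sites there would be missed. Cdkn1c was not searched, as the table used here holds no window for it. The start of Ccng1 lies on the minus strand of chromosome 11, at 40755286. The site, in capitals, spans bases -195 to -176, at chr11:40755462-40755481.
Ccng1, chr11:40755287-40755536, minus strand: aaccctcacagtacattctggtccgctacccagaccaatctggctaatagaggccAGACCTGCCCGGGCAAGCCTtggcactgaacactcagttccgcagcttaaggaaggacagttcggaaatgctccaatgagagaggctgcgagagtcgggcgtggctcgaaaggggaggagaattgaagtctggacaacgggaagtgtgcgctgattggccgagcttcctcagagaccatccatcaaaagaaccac

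Ccng1 (1420827_a_at) measured 7.93, 8.14 and 8.04 in controls and 7.71, 7.95 and 7.90 in mutants on the log2 scale. The groups overlapped, and the difference was -0.18 (95% interval -0.41 to 0.05, limma adjusted p = 0.308). The other probe sets pointed in different directions, with -0.30 (1450017_at, limma adjusted p = 0.312 over all probe sets) and 0.27 (1450016_at, 0.217). For 1450016_at the mutant arrays (4.21, 4.32 and 4.34) lay just above the controls (4.02, 3.83 and 4.21). Cdkn1a, called higher, and Ccng1, not called, each had a p53 full site in a window, with different letters. The part of these sites in either level was not tested.

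**Figure D4:**
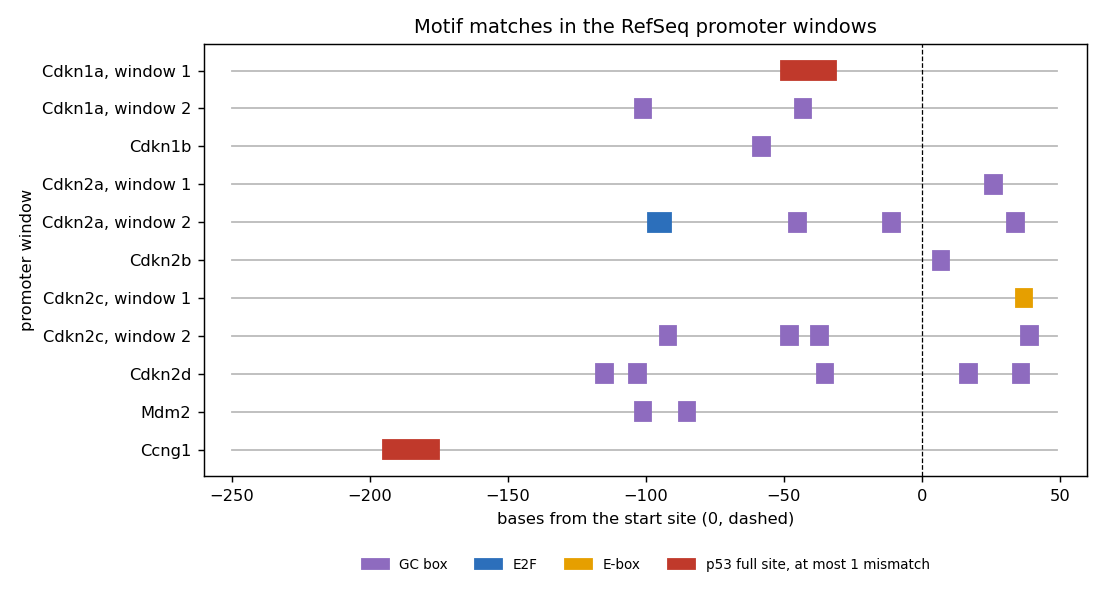
Positions of the searched motifs in 11 RefSeq promoter windows of the measured genes, drawn as distance in bases from each start site, from 250 before to 50 after it. The p53 full site appears in the first Cdkn1a window and in the Ccng1 window, and GC boxes in 8 of the 11 windows.

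Among the windows of the 9 genes that have one, 12 in all, GC boxes were found in Cdkn1a (the second), Cdkn1b, both of Cdkn2a, Cdkn2b, one of the Cdkn2c pair, Cdkn2d and Mdm2. Cdkn2d had 5 of them and its level did not pass the test. The E2F letters TTTGGCGC or TTTCCCGC, held by 1.56% of all windows, were found in 1 window, that of Cdkn2a with the start at 89294619. The E-box CACGTG, in 7.15% of windows, was found for Trp53 and in one Cdkn2c window, and TATAAA, in 13.6%, for Trp53. A match is a description of letters and not of binding.

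Of 38 genes on a list of p53 targets, 35 were measured, 3 (8.57%) were called higher, 5 (14.3%) lower and 27 were not called, where 5.61% of all genes were called higher and 6.36% lower. The list had a median difference of 0.03 on the log2 scale against -0.01 over all genes. Without Cdkn1a, Mdm2 and Ccng1, 2 of 32 were higher and 5 lower, with a median of 0.02. Perp, a membrane protein of desmosomes, fell by 1.12 on the log2 scale (limma adjusted p = 0.00142), from 7.76, 7.81 and 7.82 in controls to 6.69, 6.46 and 6.87 in mutants. Gadd45a, a growth arrest and DNA damage gene, fell by 1.10 (limma adjusted p = 0.00167), from 7.54, 7.77 and 7.34 to 6.50, 6.45 and 6.41. Eda2r, a death receptor of the TNF receptor family, fell by 1.00 (limma adjusted p = 0.00363). In all 3 the mutant arrays were below every control array. Pmaip1 (Noxa), a killer protein that blocks Bcl-2 relatives, rose by 0.95 (limma adjusted p = 0.0474) from a control mean of 2.49, a dim signal, and its call was lost in 4 of 6 runs that left out 1 array. The other called targets, chosen after their values were seen, were Phlda3, an Akt inhibitor (0.72), Gadd45b (-0.74) and the repair gene Xpc (-0.35). The count called higher dropped to 1 without control replicate 1, control replicate 3 or mutant replicate 2, and the count called lower dropped to 3 without control replicate 1. Calls over all genes also fell without control replicate 1, from 1021 to 480 higher and from 1157 to 372 lower. This general fall applies to the lists below as well. The median was 0.01 without control replicate 2 and at most 0.05 with any other array left out.

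Among the p53 family and regulators of p53, 24 of 26 genes were measured, with 2 (8.33%) higher, 3 (12.5%) lower, 19 not called and a median of -0.16. The shares over all genes were 5.61% higher and 6.36% lower, so these are small counts not far from them. Trp63, the p53 relative of basal epithelium, rose by 1.79 (limma adjusted p = 0.00208), from 2.62, 2.70 and 2.29 in controls to 3.88, 4.54 and 4.56 in mutants, a change from dim values. Hipk2, a kinase that phosphorylates p53, rose by 0.82 (limma adjusted p = 0.0177). Chek2, a checkpoint kinase that stabilizes p53 after DNA breaks, fell by 0.70 (limma adjusted p = 0.0138), and Npm1, the nucleolar protein that holds Arf, fell by 0.41 (0.0323). With each array left out in turn, the call was lost in 4 of 6 runs for Npm1, in 2 for Hipk2 and in 1 for Chek2. Trp53bp2, chosen after its values were seen, was the remaining gene called (-0.41). Of the 2 higher, 1 was left without control replicate 1 or 3, and the count lower was 0 without control replicate 1 and 1 without control replicate 2 or mutant replicate 2.

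The regulators of the Cdkn2a-Cdkn2b locus had 22 of 23 genes measured, with 2 (9.09%) higher, 1 (4.55%) lower and 19 not called. Of all genes, 5.61% were called higher and 6.36% lower, close to these small counts. The list's median was 0.08, which ran from 0.02 to 0.10 with each array left out. Tbx3 and Tbx2, T-box repressors of Arf and p21 transcription, rose by 0.76 each (limma adjusted p = 0.00763 and 0.0203), and Tbx2 was dim, with a mean of 2.99 in controls. Cbx7, a Polycomb protein that silences the locus, fell by 0.72 (limma adjusted p = 0.0126). Leaving out control replicate 1, or either of mutant replicates 2 and 3, made the count higher 1, and the count lower was 0 without control replicate 1.

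Transcriptional regulators of the Cdkn1 genes had 24 of 26 measured, with 2 (8.33%) higher, 5 (20.8%) lower, 17 not called and a median of -0.21. By comparison, 5.61% of all genes were called higher and 6.36% lower. Lef1, the DNA-binding partner of β-catenin, rose by 2.35 (limma adjusted p = 9.56e-05), from 5.57, 5.52 and 5.29 in controls to 7.67, 7.98 and 7.78 in mutants. Klf4, a zinc finger factor that activates Cdkn1a, fell by 1.19 (limma adjusted p = 0.000381), from 8.94, 9.05 and 8.96 to 7.91, 7.75 and 7.71. Lef1 and Klf4 thus moved in opposite directions, each without overlap between groups. Myc, which represses Cdkn1a together with Zbtb17, fell by 0.66 (limma adjusted p = 0.0175), and Cebpb, a factor of decidual cells, fell by 0.56 (0.00447). The call of Myc was lost in 4 of 6 runs that left out 1 array, and that of Cebpb in 0. The remaining called genes, chosen after their values were seen, were Ctnnb1 (0.33), Klf5 (-0.50) and Stat3 (-0.45). The count higher was 1 when any array except mutant replicate 1 was left out, and the count lower was 3 without control replicate 1, control replicate 2 or mutant replicate 2.

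Protein levels of p27 and p21 depend in part on ubiquitin ligases, which the arrays read only as transcripts. All 15 genes for proteolysis of Cdk inhibitors were measured, with 2 (13.3%) higher, 0 lower and 13 not called, against 5.61% of all genes higher and 6.36% lower. The list's median was 0.20, which was 0.02 without control replicate 2. Skp2, the F-box protein that marks p27 for degradation, rose by 0.71 (limma adjusted p = 0.0209), from 4.87, 4.48 and 5.03 in controls to 5.42, 5.61 and 5.47 in mutants. Skp1, its partner in the ligase, rose by 0.47 (limma adjusted p = 0.0143). Neither was called without control replicate 1 or mutant replicate 2, and 1 was without mutant replicate 3. A list of 24 genes held Cdks, cyclins, pocket proteins, E2F and Tfdp factors and Pcna, all measured. Only Ccnd1, the D-type cyclin that Ink4 proteins oppose, was called (0.78, limma adjusted p = 0.00142), and the list's median was 0.33. That is 4.17% of the list called higher, below the 5.61% of all genes. Without control replicate 2, 4 of that list were called higher and the median was 0.18, where 722 of all 18193 genes were called higher. Without mutant replicate 3, 2 of the list were called higher, where 731 of all genes were.

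Proliferation markers were measured for 23 of 24 genes, with 3 (13%) higher, 0 lower and a median of 0.64, where 5.61% of all genes were called higher. The 3 were Mcm2, Mcm3 and Mcm4, subunits of the replication helicase. Without control replicate 2 the median was -0.04 and 2 were called, and leaving out control replicate 1 or either of mutant replicates 1 and 2 left 0 called.

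**Figure D5:**
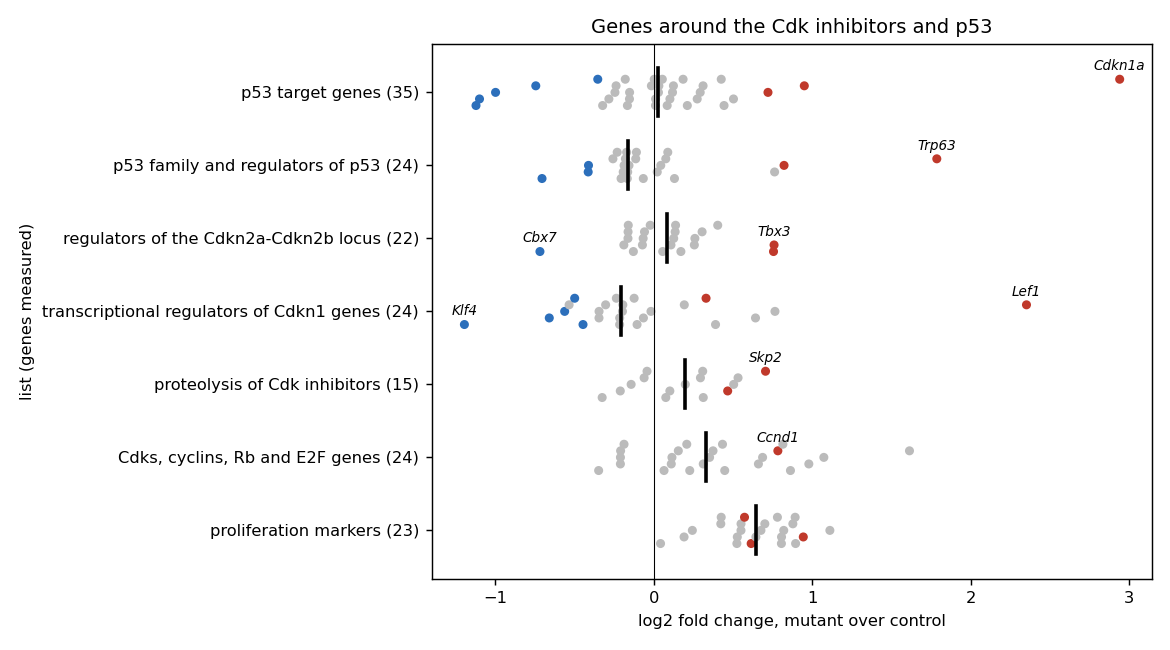
Log2 difference between mutant and control for each measured gene of the 7 pathway lists, with 1 point a gene, red (higher) or blue (lower) where the limma adjusted p is under 0.05, and a bar at the median of each list (number of genes measured in brackets). Cdkn1a is the highest of the p53 targets at 2.94, while the median of that list is 0.03.

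Some markers of other cell types also differed between the groups in which Cdkn1a and Cdkn1b differed. Over all genes 5.61% were called higher and 6.36% lower, and counts of 1 in these short lists are not read as results. As the log2 of summed intensities, 10 macrophage markers (4 higher, 0 lower) lay at 10.30 to 10.39 in controls and 10.64 to 10.70 in mutants. The sum of 7 natural killer cell markers lay at 6.81 to 7.37 and 8.40 to 8.75, with the granzymes Gzma (2.73 on the log2 scale) and Gzmd (5.18) higher and the receptor Ncr1 (-0.54) lower, while Nkg7 (-0.56) and Klrk1 (-0.29) were not called. Epithelial markers (9 genes, 1 higher, 3 lower) lay at 12.19 to 12.39 in controls and 11.70 to 12.18 in mutants, adipocyte markers (7 genes, 2 higher) at 9.10 to 11.14 and 11.79 to 12.46, and mast cell markers (6 genes) at 5.91 to 6.33 and 6.87 to 7.54. Of the mast cell markers Kit was higher (1.27), and Tpsb2, not called, was at 6.16, 6.42 and 3.28 in mutants and at most 3.14 in controls. Stromal markers (8 genes, 1 higher) lay at 14.26 to 14.28 and 14.11 to 14.22, smooth muscle markers (8 genes, 0 called) at 13.34 to 13.57 and 13.39 to 13.57, and endothelial markers (6 genes, 1 lower) at 9.10 to 9.13 and 8.85 to 9.13. Lymphocyte markers (7 genes, 1 lower) lay at 6.26 to 7.29 and 5.64 to 5.90, where the lower sum is that of Igha (-2.81 on the log2 scale), the other 6 were below 16 on every array and the list's median difference was 0.03. Those of oviduct and cilia (6 genes, 2 higher) lay at 8.44 to 9.09 and 9.25 to 9.79. Of these 6 genes, 4 were below 16 on every array, both called genes (Foxj1 and Tekt1) among them. The sums were mostly that of Tubb4b, not called, at 8.25 to 9.01 in controls and 9.17 to 9.24 in mutants. Ovgp1, also not called, was at 8.01 in mutant replicate 3 and lower on every other array. No marker was at 0, as the lowest value of the table was an intensity of 1.99, and all 3 red blood cell markers were below 16 on every array. With 1 array left out, the macrophage count fell to 0 without control replicate 1, the oviduct and cilia count to 0 without control replicate 1 and to 1 without any other array, and the adipocyte count was 4 without control replicate 2 or 3 and 1 without any other. Without control replicate 1 the calls over all genes fell too, from 1021 to 480 higher and from 1157 to 372 lower. The mast cell count was 2 without mutant replicate 3. The epithelial count lower was 4 without mutant replicate 3 and 2 without any other array. The lower natural killer cell marker was not called in any such run, and the endothelial count was 3 without mutant replicate 1, 1 without control replicate 3 and 0 otherwise. The part of these cell types in the levels of Cdkn1a and Cdkn1b was not tested.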

How the data were processed

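The data are 6 arrays, 3 control and 3 mutant, grouped by their labels. The authors deposited 1 intensity per probe set on a linear scale, with RMA named in the submitters' processing notes and no version in the sources used here. A floor of 1 left every value as it was, and log2 was then taken, as the planned test needs log2 values. Values ran from 1.99 to 10886.56. Platform annotation gave 34945 of 45037 probe sets 1 symbol, 932 several and 9160 none. Each of 18193 genes was represented by its probe set with the highest mean. The test of mutant against control was limma 3.58.1 under R 4.3.3 (lmFit, eBayes, no covariate), Benjamini-Hochberg adjustment over all genes or, for probe sets, all probe sets, threshold 0.05. The steps were tested on simulated data. Members and lists were chosen with earlier results of these data known. From each list the 4 called genes of largest change were named, with exceptions stated, and for Cdkn1a the 5 genes most like it. Promoters are RefSeq windows of GRCm38.p6, of which 9 of the 10 genes had one, searched on both strands. No pair of arrays shared over 2.11% of values. Depth is not defined for arrays, and 3 a group limits the precision. Alternatives were other scalings, gene summaries, filters, variance models, the methods' t-test, a block and leaving out each array. ChIP-seq, RT-qPCR, human and Ishikawa experiments were not analysed here.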

Additional observations from a re-analysis of the deposited data

How the results depend on the processing

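Cdkn1a was called under all 18 alternatives, at 2.71 to 3.07 on the log2 scale (adjusted p 3.73e-05 to 0.0319). Cdkn1b stayed lower at -0.82 to -0.44 and its call was lost under 8 of 18, so the count of members called lower was 0 with the mean of probe sets, a floor of 16, the methods' t-test after Benjamini-Hochberg and the replicate block, and 0 to 1 with each array left out. The count of members called higher became 2 with array weights or the methods' t-test unadjusted, by Cdkn2a (adjusted p 0.0419 with array weights), and was 1 with each array left out. Without control replicate 2, Cdkn1c turned to 0.081 (-0.15 to 0.081 over arrays left out) and Cdkn2d to -0.076 (-0.076 to 0.37), neither called. With the floor of 16, Cdkn2a has no value. Genes called higher (1021) became 1574 probe sets together, 283 with the floor, 1924 by the methods' t-test unadjusted, 105 after adjustment and 480 to 971 with each array left out, the lowest without control replicate 1. Genes called lower (1157) became 243 with the floor, 2225 and 40 by the methods' t-test, 757 at a fold above 1.5 with an unadjusted p under 0.05, and 372 to 1139 with each array left out, again lowest without control replicate 1. The replicate block gave Cdkn1a 2.94 (adjusted p 0.000378) and Cdkn1b -0.70 (0.0782), and called 966 genes higher and 1085 lower. Deviations of same-numbered arrays correlated at 0.0107, 0.212 and 0.164, and 2 of 3 control arrays ran best with their own number, so that 1 of 3 numbers gave no correlation over 0.1 and a pairing is not established. The causes were not tested. Dim probe sets (62.3% to 62.6% below 16 on each array) limit Cdkn2a, Cdkn2b and the dim probe sets of Cdkn1b and Mdm2.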

Other observations

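A p53 full site was found in a RefSeq window of 29 genes, 12 of which were measured. Besides Cdkn1a, Mthfd1, an enzyme of folate metabolism, rose by 0.34 on the log2 scale (limma adjusted p = 0.0444) and Bank1, a B cell scaffold protein, by 0.48 (0.0461), both chosen after their values were seen. Thus 3 of the 12 were higher and 0 lower, where 5.61% of all genes were called higher and 6.36% lower. The other 9 were not called, and the median of the 12 was 0.10. Cdkn1a is among the 3 higher, and the search was added after its promoters had been seen. The count is therefore a description and no test of these sites. The adjusted p of Mthfd1 and of Bank1 lay close to the threshold of 0.05. Among those not called, Gtse1, a p53 target that is active late in the cycle, differed by 0.43 (limma adjusted p = 0.204).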
